A study of Mus musculus with 6 samples.

Results

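The genes described are the chemokine ligands and chemokine receptors of the mouse, taken as every array row whose single gene symbol begins with Ccl, Cxcl, Cx3cl, Xcl, Ccr, Cxcr, Cx3cr or Xcr and a number, with Cxcr2 left out by the rule. They came to 51 of 19938 genes measured, 34 ligands and 17 receptors. They were measured in whole colon of 3 VilCre;Ihhflox/flox mice (the mutants, in which a Cre recombinase under the villin promoter deletes floxed Ihh in intestinal epithelium) and of 3 control littermates, 1 Affymetrix array per mouse. The labels call the controls wild type and give no further alleles for them. The series' design text places the harvest at postnatal day 12 and the growth protocol at day 9 to 12, so the age of a single mouse is not known. Mutant and control of the same number were littermates, which gives 3 litters.

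Chemokines are small secreted proteins that guide migrating leukocytes. They bind to heparan sulphate on cells and matrix and are read by receptors coupled to inhibitory G proteins on the migrating cell. In the gut some are made steadily by epithelium and stroma to place resident lymphocytes, plasma cells and macrophages, while others are induced by microbial products and by cytokines such as interleukin 1 and tumour necrosis factor, and draw neutrophils and monocytes into the wall. Ihh, the ligand whose gene is targeted in the mutants, is known for signalling from gut epithelium to the mesenchyme beneath it.

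Expression is given as log2 values from RMA, differences are mutant minus control with the standard error of the limma fit, and a gene passed at an adjusted p under 0.05 over all 19938 genes. Ptch1, the hedgehog receptor and a target of the pathway, differed by -1.44 ± 0.09 (adjusted p = 0.000493), while Ihh itself stood at -0.30 ± 0.09 and did not pass (adjusted p = 0.139). Whether the Ihh probes lie in the deleted stretch was not tested. Defining genes of colon epithelium and of smooth muscle were measured in every array, with list means of 11.00 to 11.16 in mutants and 11.12 to 11.21 in controls for 15 epithelial genes and of 10.83 to 11.24 in mutants and 11.53 to 11.59 in controls for 12 muscle genes. Whole tissue was hybridised, so fewer cells of a type and less RNA per cell cannot be told apart.

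Of the 51 genes 4 rose in mutants (7.84%), against 1.66% of all genes tested, and 2 fell (3.92%), against 2.11%. The other 45 did not pass, and in either direction 3.77% of all genes did. The genes that rose were the ligands Cxcl5, Ccl9 and Ccl6 and the receptor Ccr2, and those that fell were the ligand Cxcl14 and the receptor Cx3cr1. The median difference over the 51 genes was 0.03, beside 0.01 for all genes, and 29 of the 51 (56.9%) lay above 0, against 52.5% of all genes. All 3 mutant arrays lay above all 3 control arrays for 10 members (19.6%), against 10% of all genes, and below them for 8 members (15.7%), against 9.78%. At an unadjusted p under 0.05, 9 members were higher and 7 lower, against 7.05% and 8.03% of all genes. The mutant was above its littermate in all 3 litters for 14 members, against 18.8% of all genes, and below it in all 3 for 13, against 17.1%. Of the 51 genes 26 were among the dimmest 30% of all genes by their mean, Cxcl5 and Cxcl2 with them. No detection calls were used, so small differences of such genes are uncertain.

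**Figure D1:**
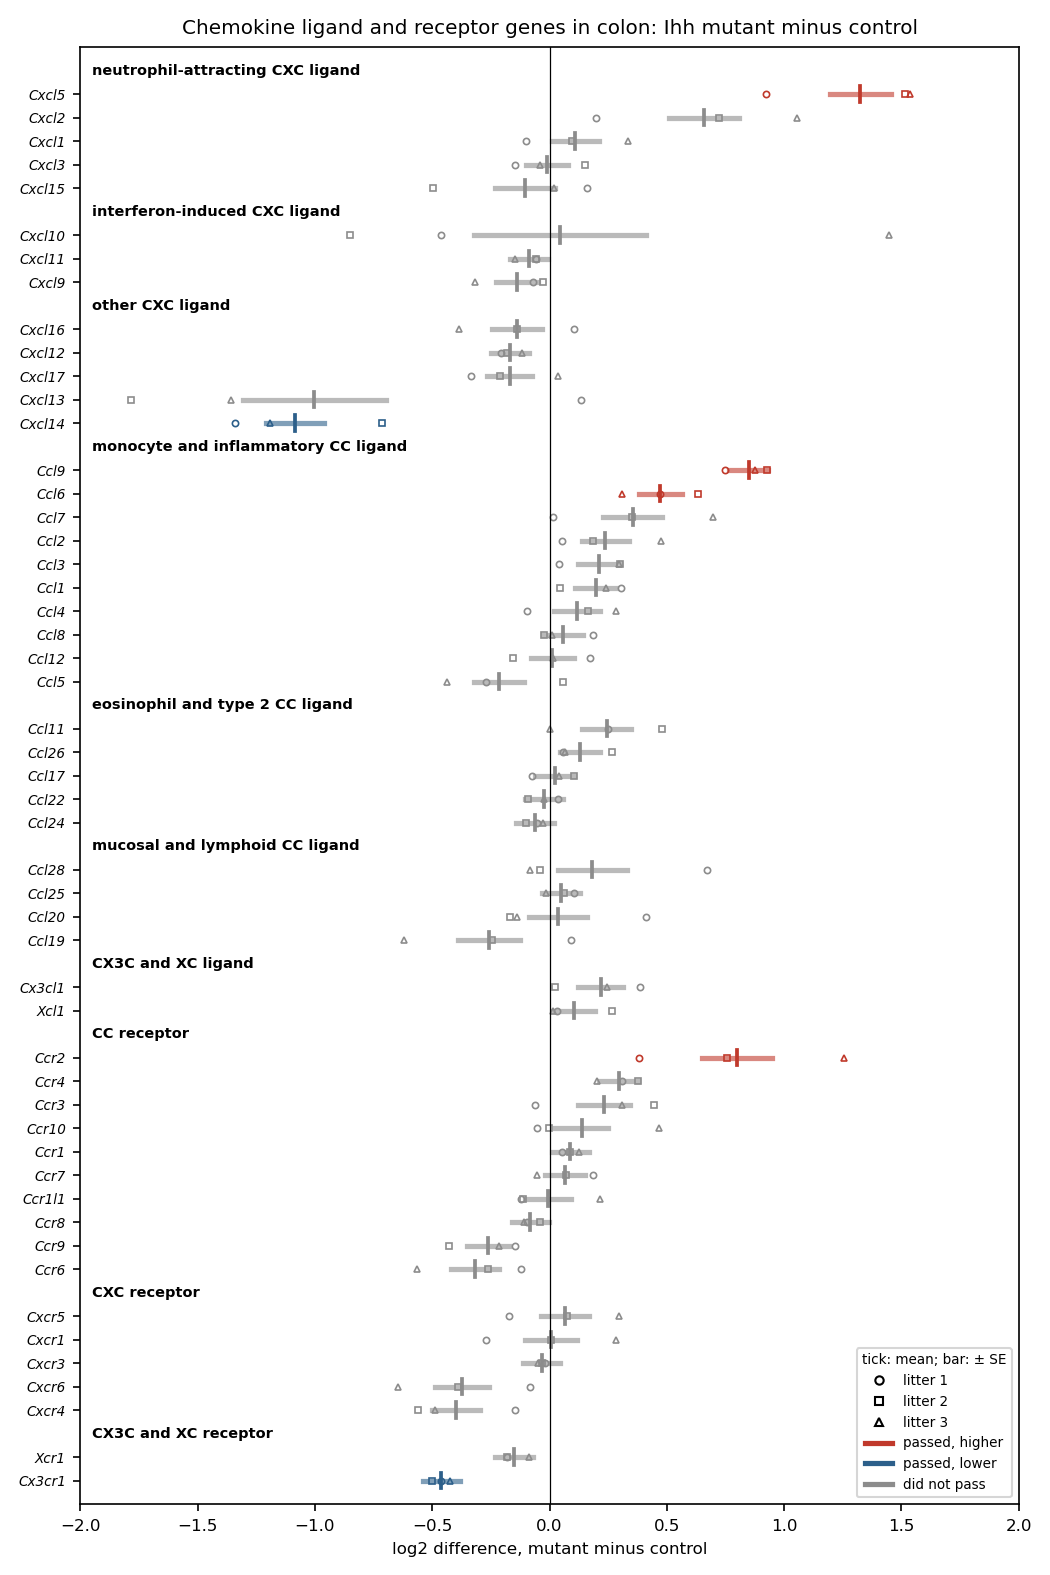
Log2 difference, mutant minus control, of each of the 51 chemokine and receptor genes, grouped by role; the tick is the mean over 3 litters, the bar ± its standard error and the open symbols the single litters. Cxcl5, Ccl9, Ccl6 and Ccr2 stand to the right in red and Cxcl14 and Cx3cr1 to the left in blue, while most members lie near 0.

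Promoter sequence is shown for 4 ligands, the neighbours Ccl9 and Ccl6 that rose together, Cxcl14, the ligand that fell, and Cxcl2, which did not pass and stands for the ligands that attract neutrophils, and no window of Cxcl5 was used here. They are the 250 bases before the start of the gene, 5′ to 3′ in the direction of transcription, from RefSeq on GRCm38.p6, and capitals mark matches to any of the motifs searched.
Ccl9, chr11:83578637-83578886, minus strand: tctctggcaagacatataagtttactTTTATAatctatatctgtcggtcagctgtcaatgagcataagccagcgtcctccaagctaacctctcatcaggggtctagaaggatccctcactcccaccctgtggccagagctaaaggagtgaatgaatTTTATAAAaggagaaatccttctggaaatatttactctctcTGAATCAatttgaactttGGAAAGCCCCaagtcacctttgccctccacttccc
Ccl6, chr11:83593088-83593337, minus strand: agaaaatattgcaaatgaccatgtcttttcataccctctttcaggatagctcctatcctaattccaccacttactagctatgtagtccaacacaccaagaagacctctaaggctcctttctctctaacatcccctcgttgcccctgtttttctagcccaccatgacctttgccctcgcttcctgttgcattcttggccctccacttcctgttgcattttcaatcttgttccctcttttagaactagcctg
Cxcl2, chr5:90903649-90903898, plus strand: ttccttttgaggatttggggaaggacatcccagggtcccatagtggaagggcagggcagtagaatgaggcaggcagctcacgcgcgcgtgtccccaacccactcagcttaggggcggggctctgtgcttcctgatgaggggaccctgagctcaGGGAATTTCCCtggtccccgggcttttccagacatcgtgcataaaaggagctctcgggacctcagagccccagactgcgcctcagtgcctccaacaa
Cxcl14, chr13:56296552-56296801, minus strand: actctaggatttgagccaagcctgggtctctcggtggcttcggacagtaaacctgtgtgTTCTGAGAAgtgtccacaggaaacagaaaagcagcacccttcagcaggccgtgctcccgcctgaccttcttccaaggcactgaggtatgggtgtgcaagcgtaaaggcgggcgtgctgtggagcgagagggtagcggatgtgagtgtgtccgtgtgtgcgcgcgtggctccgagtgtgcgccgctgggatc

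The motifs, searched on both strands, were the NF-kappa-B consensus (by its name), GACCACCC for Gli factors, TGANTCA for AP-1, TTGCNNAA for C/EBP factors, TTCNNNGAA for STAT factors, GAGGAAGT for PU.1 and TATAAA for the TATA box. Of the 51 genes 37 had a window in the table, 39 windows in all. The NF-kappa-B consensus was found in 10 of the 39 (25.6%), against 7.25% of 32841 promoter windows, and TATAAA in 12 (30.8%), against 12.4%. AP-1 letters stood in 4 of the 39 (10.3%, against 6.75%), STAT letters in 4 (10.3%, against 7.02%), C/EBP letters in 1 (2.56%, against 9.57%), PU.1 letters in 1 (2.56%, against 2.44%) and the Gli letters in 0 (against 0.703%). Cxcl2 held the NF-kappa-B letters on both strands in an overlapping pair, 87 to 97 bases before the start. Ccl9 held them 26 to 35 bases before the start, beside AP-1 letters at 47 to 53 bases. Cxcl1 and Cxcl3 held the same pair as Cxcl2, 61 to 71 and 63 to 73 bases before the start, and did not pass. Ccl1, Ccl20, Ccr1, Ccr3, Ccr6 and Cxcl10 also held NF-kappa-B letters and did not pass, so Ccl9 alone of these genes passed. In Ccl9 the TATAAA letters overlap a match on the other strand 87 to 94 bases before the start, and a further match lies at 219 to 224 bases. Cxcl14 held 1 match, to the STAT letters. The windows of Ccl6, Ccr2 and Cx3cr1 held none of these letters. These matches describe letters in a window and are no evidence that a factor binds.

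The CXC ligands that attract neutrophils were represented by 5 genes, of which 1 rose (20%, against 1.66% of all genes). Cxcl5, which epithelial and other tissue cells make when stimulated, had values of 6.25, 6.55 and 6.62 in mutants 1 to 3, against 5.33, 5.03 and 5.08 in controls 1 to 3. Every mutant lay above every control by a wide margin. The mean was 6.47 ± 0.194 in mutants and 5.15 ± 0.159 in controls (SD, n = 3 each), a difference of 1.33 ± 0.13 or 2.51-fold (adjusted p = 0.00258), and it was the largest rise among the 51 genes. Cxcl2, the macrophage inflammatory protein that also attracts neutrophils, measured 5.09, 5.53 and 5.70 in mutants and 4.89, 4.81 and 4.64 in controls. The groups did not overlap, but the litters differed, at 0.20, 0.72 and 1.06, and the gene narrowly missed the threshold (0.66 ± 0.15, adjusted p = 0.0556). Its adjusted p was 0.0468 without the litter block, 0.0129 without litter 1, 0.0285 without litter 2 and 0.156 without litter 3. Cxcl1, another attractant of neutrophils, stood at 0.11 ± 0.10 (adjusted p = 0.726), Cxcl3 at -0.01 ± 0.09 and Cxcl15, known mainly from lung, at -0.11 ± 0.13, and for each of them the groups overlapped.

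Neutrophil markers were read in the same arrays. Of 17 measured 10 rose (58.8%, against 1.66% of all genes) and 0 fell. Lcn2 (1.22 ± 0.13), S100a9 (0.96 ± 0.12) and Clec4d (0.67 ± 0.09) were among those that rose. Whole tissue was hybridised, and which cells expressed these markers was not tested. The mean of the list was 5.99 to 6.48 in mutants, against 5.60 to 5.67 in controls, and its median difference was 0.54, beside 0.01 for all genes, with 0.40, 0.53 and 0.76 in litters 1, 2 and 3. The count was 9, 12 and 7 without litters 1, 2 and 3. Cxcr1, a chemokine receptor carried by neutrophils, stood at 5.55, 5.56 and 5.80 in mutants and 5.82, 5.55 and 5.52 in controls, with a difference of 0.01 ± 0.11. The part of neutrophil number in the differences of the CXC ligands was not tested.

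**Figure D2:**
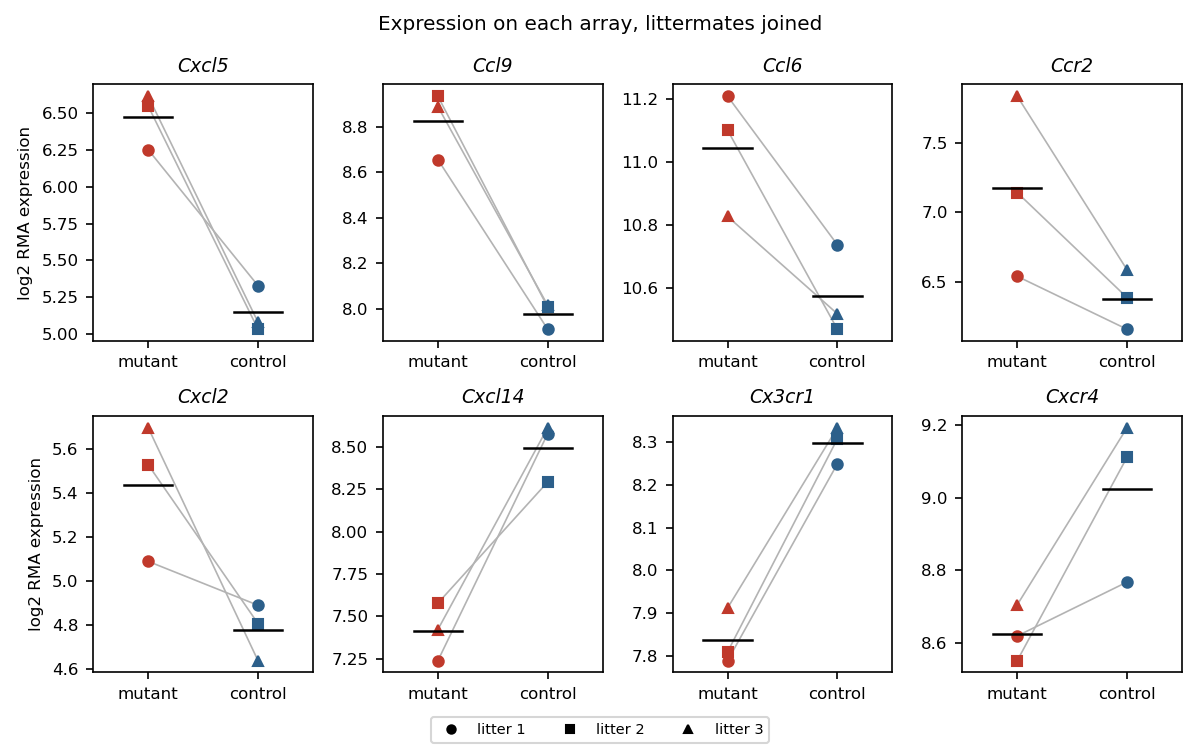
Log2 RMA expression on each array for 8 genes, mutants left and controls right, with littermates joined by a line, a symbol for each litter and a black bar at each group mean; each panel has its own axis. Mutants and controls do not overlap for Cxcl5, Ccl9, Ccl6, Cxcl2, Cxcl14, Cx3cr1 and Cxcr4, and overlap for Ccr2.

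Of 10 CC ligands that draw monocytes and other inflammatory cells 2 rose (20%, against 1.66% of all genes) and 0 fell. Of the same 10 ligands 9 had a difference above 0, where 52.5% of all genes did. Ccl9, a rodent chemokine made by macrophages and other myeloid cells and read by Ccr1, measured 8.66, 8.93 and 8.89 in mutants and 7.91, 8.01 and 8.01 in controls. The mutant lay above its littermate by 0.75, 0.93 and 0.87, and the gene rose 1.8-fold (0.85 ± 0.08, adjusted p = 0.00263). It passed in all 11 alternative fits. Ccl6, a related rodent chemokine of myeloid cells, had 11.21, 11.10 and 10.83 in mutants and 10.74, 10.47 and 10.52 in controls, and the groups did not overlap. It rose by 0.47 ± 0.09 (adjusted p = 0.0324), with adjusted p = 0.0666 without the litter block, 0.0714 without litter 1 and 0.113 without litter 2.

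The classical monocyte attractants showed smaller differences. Ccl2 had 6.53, 6.59 and 7.0 in mutants and 6.47, 6.40 and 6.52 in controls, so that the groups did not overlap, with a difference of 0.24 ± 0.10 (adjusted p = 0.32). Ccl7, which shares the receptor Ccr2 with Ccl2, measured 6.73, 6.68 and 7.15 in mutants and 6.72, 6.33 and 6.45 in controls (0.35 ± 0.13, adjusted p = 0.225). In both genes mutant 3 was the highest array. Ccl3 and Ccl4, the macrophage inflammatory proteins read by Ccr1 among others, stood at 0.21 ± 0.09 and 0.12 ± 0.10 and did not pass. Ccl1, Ccl8 and Ccl12 lay between 0.01 and 0.20. Ccl5, known from T cells and natural killer cells, was the 1 member of the group below 0, at -0.22 ± 0.11, and its groups overlapped.

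Ccl9 and Ccl6 lie next to each other among the chemokine genes on the RefSeq assembly, between Ccl5 and the pair Ccl3 and Ccl4. Of these 5 neighbours 2 rose and 3 did not pass. The CXC members Cxcl5, Cxcl3, Cxcl15, Cxcl1 and Cxcl2 also lie in a row, in which genes of other names were not placed. The members at either end had the larger differences (1.33 and 0.66), and the 3 members between them lay between -0.11 and 0.11. Among 7 neighbouring receptor genes Ccr2, at the end of the row, passed, and the other members, Ccr9, Cxcr6, Xcr1, Ccr1, Ccr1l1 and Ccr3, lay between -0.37 and 0.23. Within 500 kb of each other, 33 of the 51 genes formed 8 such groups, and in none of them did all members pass. Chemokine neighbours are related in sequence, and sharing of array signal between them was not tested.

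**Figure D3:**
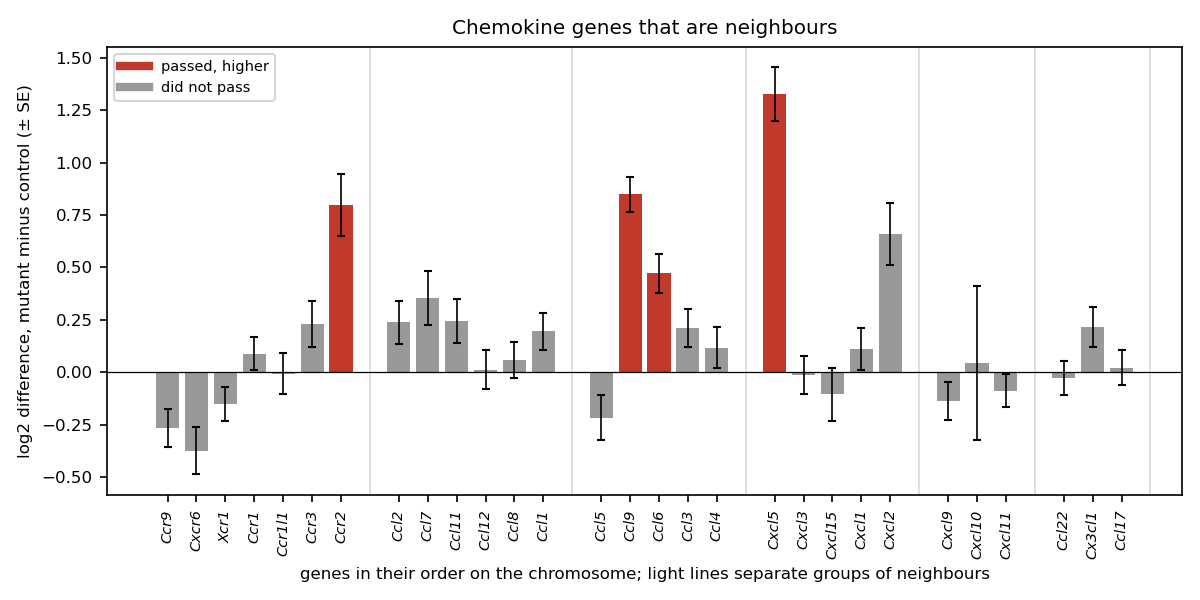
Log2 difference, mutant minus control, with its standard error for chemokine and receptor genes that lie in groups of at least 3 neighbours, in their order on the chromosome. Red bars passed the test and grey bars did not, and red and grey bars stand side by side in the groups that hold Ccr2, Ccl9 with Ccl6, and Cxcl5.

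Cxcl14 was the ligand that fell. It is a chemokine that epithelia and fibroblasts make steadily. Values were 7.24, 7.58 and 7.42 in mutants and 8.58, 8.29 and 8.61 in controls, so each mutant lay far below each control. The mean was 7.41 ± 0.170 in mutants and 8.50 ± 0.176 in controls (SD, n = 3 each). Mutants were thus lower by 2.12-fold (-1.08 ± 0.12, adjusted p = 0.00469). The gene passed in all 11 alternative fits, with adjusted p between 3.23e-06 and 0.017. Of 15 measured fibroblast markers 3 fell in the same mutants, Mfap5 (-1.09 ± 0.08), Cd34 (-0.42 ± 0.08) and Pdgfra (-0.42 ± 0.08), with 3, 1 and 1 without litters 1, 2 and 3. The list mean was 10.14 to 10.33 in mutants and 10.40 to 10.48 in controls, and the median difference -0.21. Cd34 is also counted below among adhesion genes, and which cells expressed it was not tested. The part of fibroblast number in the fall of Cxcl14 was not tested.

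Cxcl12, which stroma makes to hold cells that carry Cxcr4, measured 9.06, 9.08 and 9.19 in mutants and 9.27, 9.26 and 9.30 in controls. The groups did not overlap, but the difference was small (-0.17 ± 0.08, adjusted p = 0.39). Its receptor Cxcr4 had 8.62, 8.55 and 8.71 in mutants and 8.77, 9.11 and 9.19 in controls, at -0.40 ± 0.10 (adjusted p = 0.0828, and 0.028 without litter 1). Ackr3, the scavenging receptor that binds Cxcl12, fell by 0.70 ± 0.09 (adjusted p = 0.00834). Of 13 decoy receptors and chemokine-like ligands, a list outside the 51 genes, 2 fell and 0 rose, and the other that fell was Rarres2, the attractant chemerin (-0.45 ± 0.08, adjusted p = 0.0269), which had adjusted p = 0.273 without the litter block and 0.0907 and 0.0908 without litters 2 and 3.

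Cxcl16, a membrane-bound ligand of macrophages and epithelium, had 7.94, 7.74 and 7.58 in mutants and 7.83, 7.88 and 7.96 in controls (-0.14 ± 0.11). Its receptor Cxcr6, carried by T cells and innate lymphoid cells, measured 6.02, 5.78 and 5.70 in mutants and 6.10, 6.17 and 6.34 in controls, at -0.37 ± 0.11 (adjusted p = 0.142, and 0.0437 without litter 1). The ligand's groups overlapped and the receptor's did not. Cxcl17, a mucosal attractant of myeloid cells, stood at -0.17 ± 0.10 and did not pass.

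Among the receptors 1 of 17 rose (5.88%, against 1.66% of all genes), 1 fell (5.88%, against 2.11%) and 15 did not pass. Ccr2, the receptor of Ccl2 and Ccl7 that lets monocytes leave the marrow and enter tissue, measured 6.54, 7.14 and 7.84 in mutants and 6.16, 6.39 and 6.59 in controls. The mutant was higher in each litter, by 0.38, 0.76 and 1.25, yet the lowest mutant lay just below the highest control. The difference was 0.80 ± 0.15, or 1.74-fold (adjusted p = 0.029), with adjusted p = 0.185 without the litter block and 0.0156, 0.00421 and 0.0443 without litters 1, 2 and 3. Cx3cr1, the fractalkine receptor of resident gut macrophages, had 7.79, 7.81 and 7.91 in mutants and 8.25, 8.31 and 8.33 in controls. The groups were tight and apart. It fell by 0.46 ± 0.08 (adjusted p = 0.0216), by nearly the same amount in each litter (-0.46, -0.50 and -0.42), with adjusted p = 0.058 without litter 2 and 0.0682 without litter 3. Its ligand Cx3cl1, fractalkine, measured 9.05, 8.86 and 8.85 in mutants and 8.67, 8.84 and 8.61 in controls, without overlap and at 0.22 ± 0.10 (adjusted p = 0.338).

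General markers of macrophages and monocytes did not share 1 direction. Of 18 measured 2 rose, Itgam (0.52 ± 0.08) and Cd14 (0.40 ± 0.08), and 0 fell, with 2, 1 and 0 rises and 0, 0 and 1 falls without litters 1, 2 and 3 and 0 rises without the litter block. The list mean was 7.70 to 7.88 in mutants and 7.69 to 7.84 in controls, and the median difference 0.02. Itgam is also counted below among adhesion genes, and Cd14 among toll-like receptors and adaptors. Which cells expressed Itgam and Cd14 was not tested. Of 17 dendritic cell markers 2 fell, H2-Ab1 (-0.92 ± 0.17) and Cd74 (-0.85 ± 0.17), which macrophages and B cells also express, with 5, 3 and 1 without litters 1, 2 and 3 and 0 without the litter block; the list mean was 7.28 to 7.53 in mutants and 7.57 to 7.81 in controls and the median difference -0.12. The part of these cells in the receptors' differences was not tested.

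The other CC receptors did not pass. Ccr4, known from T helper and regulatory T cells, measured 6.38, 6.62 and 6.32 in mutants and 6.08, 6.24 and 6.12 in controls, without overlap (0.29 ± 0.08, adjusted p = 0.112). Ccr1, the receptor of Ccl9, had 5.90, 5.91 and 5.98 in mutants and 5.85, 5.82 and 5.85 in controls, at 0.09 ± 0.08. Ccr3, the eosinophil receptor, stood at 0.23 ± 0.11 with overlapping groups. Its ligand Ccl11, eotaxin, measured 8.14, 8.41 and 8.19 in mutants and 7.89, 7.93 and 8.19 in controls (0.24 ± 0.11, adjusted p = 0.333), and the groups overlapped through control 3. The remaining ligands of the eosinophil and type 2 group, Ccl24, Ccl26, Ccl17 and Ccl22, lay between -0.06 and 0.13. Ccr8, known from skin and regulatory T cells, and Ccr1l1 stood at -0.08 and -0.01.

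Ligand and receptor pairs that place lymphocytes in the gut wall were looked at next. Ccl28, the colon's attractant for IgA plasma cells, had 9.80, 9.43 and 9.56 in mutants and 9.13, 9.47 and 9.65 in controls, and only litter 1 had the mutant above its control (0.18 ± 0.15, adjusted p = 0.673). Its receptor Ccr10 measured 6.68, 6.56 and 6.78 in mutants and 6.74, 6.56 and 6.31 in controls (0.14 ± 0.11). The groups overlapped in both. Ccl20, the ligand that epithelium over lymphoid follicles makes, measured 7.83, 7.33 and 7.27 in mutants and 7.42, 7.50 and 7.41 in controls, and again litter 1 alone had the mutant above its control (0.03 ± 0.12). Its receptor Ccr6 had 5.97, 5.78 and 6.06 in mutants and 6.10, 6.04 and 6.63 in controls, lower in each litter but not past the test (-0.32 ± 0.10, adjusted p = 0.169).

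Ccl25, the chemokine by which small intestinal epithelium attracts cells that carry Ccr9, was read by 2 rows of the array that disagreed. The row with the higher mean, which the rule uses and whose annotation lists a non-coding RefSeq transcript and a cDNA, had 7.63, 7.65 and 7.49 in mutants and 7.53, 7.59 and 7.51 in controls, at 0.05 ± 0.08 (adjusted p = 0.869). The other row, whose annotation also holds the RefSeq mRNA, had 7.78, 7.83 and 7.90 in mutants and 7.14, 7.21 and 7.06 in controls. There every mutant lay above every control, by 0.70 ± 0.09 (adjusted p = 0.00691 in a fit of all array rows). With that row standing for Ccl25, a choice made after seeing the data, the chemokine genes that rose came to 5. With the mean of both rows the difference was 0.38 (adjusted p = 0.0445). Ccr9 measured 5.56, 5.40 and 5.50 in mutants and 5.71, 5.83 and 5.72 in controls, lower in each litter and without overlap, but not past the test (-0.26 ± 0.09, adjusted p = 0.195). Of 16 small intestinal markers 2 rose in mutants, the bile acid transporter Slc10a2 (1.17 ± 0.16) and the fatty acid binding protein Fabp2 (0.73 ± 0.15, with adjusted p = 0.144 without litter 1 and 0.0914 without litter 3). The list mean was 7.78 to 7.93 in mutants and 7.44 to 7.67 in controls, and its median difference was 0.12. Its count was 1, 3 and 2 rises and 1, 0 and 1 falls without litters 1, 2 and 3. At an unadjusted p under 0.05 in limma, 6 of the 16 were higher and 1 lower. The part of small intestinal tissue in the Ccl25 values was not tested.

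Ligands of lymphoid tissue varied by litter. Cxcl13, which gathers B cells into follicles, measured 7.57, 6.46 and 7.56 in mutants and 7.43, 8.25 and 8.91 in controls. Mutant and control were close in litter 1, while the mutant was far lower in litters 2 and 3 (-1.78 and -1.36). Over all litters the difference was -1.0 ± 0.30 and did not pass (adjusted p = 0.14), and without litter 1 it was -1.57 (adjusted p = 0.00331). Ccl19, the ligand of Ccr7 in T cell zones, had 6.92, 7.0 and 7.02 in mutants and 6.83, 7.25 and 7.65 in controls (-0.26 ± 0.13, adjusted p = 0.427), with litter 1 above 0 and the other litters below. Its 5 array rows gave differences between -0.29 and -0.21. The receptors of these ligands, Cxcr5 on B cells and Ccr7 on naive T cells and migrating dendritic cells, both stood at 0.07 and did not pass.

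B cell and plasma cell markers also differed by litter, with a median difference of 0.10, -0.11 and -0.40 in litters 1, 2 and 3 over 14 genes, of which 0 rose and 0 fell in limma. At an unadjusted p under 0.05, 0 were higher and 3 lower, and without litter 2 1 fell. Their mean was 6.58 to 6.76 in mutants and 6.60 to 7.15 in controls. The part of B cells in the values of Cxcl13 and Ccl19 was not tested.

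**Figure D4:**
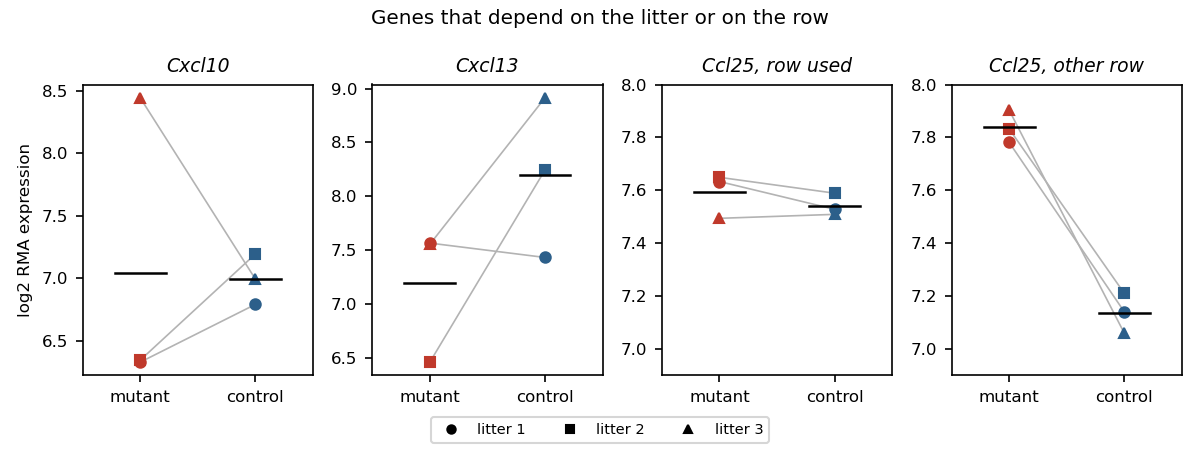
Log2 RMA expression on each array for Cxcl10 and Cxcl13 and for both array rows of Ccl25, mutants left and controls right, littermates joined, black bars at group means; each of the first panels has its own axis and both Ccl25 panels share one. Mutant 3 alone is high for Cxcl10, litter 1 alone lacks the difference in Cxcl13, and only the second Ccl25 row separates the groups.

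The CXC ligands that interferon induces gave no call. Cxcl10, which draws activated T cells through Cxcr3, measured 6.33, 6.35 and 8.44 in mutants and 6.79, 7.20 and 7.0 in controls. Mutants 1 and 2 lay below every control and mutant 3 far above, so that the mean difference was 0.05 ± 0.37 (adjusted p = 0.98), and without litter 3 it was -0.66 (adjusted p = 0.0221). Cxcl9 and Cxcl11, which share the receptor, stood at -0.14 ± 0.09 and -0.09 ± 0.08, with every mutant below every control. Cxcr3 itself had 6.83, 6.89 and 7.01 in mutants and 6.85, 6.92 and 7.05 in controls (-0.03 ± 0.08). Of 26 interferon-induced genes outside the family 0 rose and 0 fell in limma, with 1 higher and 1 lower at an unadjusted p under 0.05 and 1 fall without litter 1 and without litter 3. Their median difference was -0.06, -0.34 and 0.24 in litters 1, 2 and 3. Xcl1, a ligand made by T cells and natural killer cells, and its receptor Xcr1 on cross-presenting dendritic cells stood at 0.10 ± 0.09 and -0.15 ± 0.08 and did not pass.

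Of 20 cytokines known to induce chemokines 1 rose and 1 fell, with 2, 1 and 2 rises without litters 1, 2 and 3. Il1b, which induces Cxcl5 and Cxcl2 in many cells, rose by 1.81 ± 0.12 (adjusted p = 0.000664), and Csf1, the growth factor of macrophages, fell by 0.49 ± 0.09 (adjusted p = 0.0217, and 0.0697 without litter 3). Of 24 receptors and antagonists of these cytokines 2 rose, Osmr (0.80 ± 0.10) and Csf3r (0.54 ± 0.10, with adjusted p = 0.106 without the litter block and 0.107 without litter 3). At an unadjusted p under 0.05 in limma, 5 of the 24 were higher and 2 lower, and the median difference was 0.02. Without litter 1, and also without litter 2, 1 of them fell. Csf3r also stood in the list of neutrophil markers. Of 21 NF-kappa-B factors and feedback genes 1 rose, Nfkbiz (0.43 ± 0.08, adjusted p = 0.0308, with 0.0838 without litter 2 and 0.162 without litter 3). Of 29 genes that carry the signal of chemokine receptors inside the cell 0 rose and 0 fell in limma, with 2 higher and 6 lower at an unadjusted p under 0.05. The smallest p there belonged to Arrb1, an arrestin that ends receptor signalling (-0.35 ± 0.08, adjusted p = 0.0556, and 0.0432 without the litter block). Of 17 proteases that can cut chemokines 4 rose, Mmp3 (0.85 ± 0.09), Mmp10 (0.82 ± 0.10) and Mmp7 (1.32 ± 0.19) among them, and 1 fell, Mmp2 (-0.46 ± 0.09, with adjusted p = 0.119 without the litter block and 0.0962 and 0.115 without litters 1 and 2).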

How the data were processed

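RNA from whole colon of 6 mice was hybridised to Affymetrix Mouse Gene 1.0 ST arrays, 3 mutants and 3 control littermates. The authors deposited log2 expression values, made with RMA (version not given in the sources used here) per the submitters' processing notes. There were 35557 rows. The platform's annotation of 2016 gave 1 symbol to 21789 rows, several to 1621 and none to 12147. Where a gene had several rows, the brightest on average was kept, which left 19938 genes. The 7 rows that name several chemokine genes (copies of Ccl21 and of Ccl27) were left out.

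The contrast of mutant over control was fitted in R 4.3.3 by limma 3.58.1 (two-sided moderated test by lmFit and eBayes, Benjamini-Hochberg adjustment over 19938 genes), with the litter as a fixed block, since the series' design text names littermates. All adjusted p values are from this limma fit or its named alternatives. As a check, each littermate pair's deviations from the means of their groups had correlations of 0.0128, 0.00516 and 0.0613, and pairing therefore comes from the design text alone. Each gene has 2 residual degrees of freedom and 5.85 from the shared prior. The number of arrays, 3 per group, limits precision. The script was tested on simulated data that held no litter effect, so that test did not check the litter block.

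The members and 26 lists of other genes were chosen with earlier results of these data known, and so was the rule for named genes: every member may be named; of a list, up to 3 genes that passed with the smallest p in each direction, or the 2 with the smallest p where none passed. List levels are means of log2 values. Alternatives were no litter block, a random litter effect, a robust eBayes with an intensity trend, leaving out the dimmest 30% of genes, median centring, quantile normalization, all rows tested, a gene's rows averaged, and each litter left out.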

Additional observations from a re-analysis of the deposited data

How the results depend on the processing

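Of the 6 chemokine genes that passed, Cxcl5, Ccl9 and Cxcl14 passed in every alternative that tested them, while Cx3cr1 and Ccr2 passed in 9 of 11 and Ccl6 in 8 of 11; values are given in the results. Without the litter as a block, 3 chemokine genes rose and 2 fell, and 274 genes rose and 364 fell over the whole table, against 330 and 421 with the block. With a litter left out, the number of chemokine genes that rose was 4 each time, but without litter 1 and without litter 2 Ccl6 was lost and Cxcl2 passed in its place. The number that fell ranged between 1, without litter 2, and 5, without litter 1, where Cxcr4, Cxcl13 and Cxcr6 also passed. Their median difference ranged between -0.0023, without litter 3, and 0.0605. The median was 0.0462 without the dimmest 30% of genes and 0.0593 after median centring, beside 0.03; the first setting tests fewer genes, and the other adds the same amount to every gene's difference. With a litter left out, Cxcl10 ranged between -0.66, without litter 3, where it passed, and 0.49, since mutant 3 held its high value. Reading Ccl25 from its other row was added after seeing the data. Of 52 list counts 30 moved by more than 1.5 times under at least 1 alternative; the neutrophil count ranged between 3 of the 5 tested without the dimmest 30% of genes, which leaves out 12 of the 17, and 12 of 17, and the smooth muscle count between 1, without litter 1, and 9. With 26 of 51 members among the dimmest 30% of genes, small differences of dim ligands and receptors may lie under what 3 arrays a group can detect.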

Other observations

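Other genes tied to leukocyte recruitment changed in single cases. Of 22 toll-like receptors and adaptors 3 rose and 0 fell: Lbp (0.73 ± 0.12), which carries bacterial lipopolysaccharide, Irak3 (0.49 ± 0.09), an inhibitor of receptor signalling, and Cd14 (0.40 ± 0.08, adjusted p = 0.0441, and 0.0502, 0.0877 and 0.259 without litters 1, 2 and 3 and 0.076 without the litter block). Of 20 adhesion and homing genes Itgam rose, and Cd34 and Itga4 (-0.60 ± 0.12) fell; both falls were lost without litters 2 and 3, and the rise without litter 3. Without the litter block Itga4 (adjusted p = 0.1) and Itgam (adjusted p = 0.0515) did not pass either.

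Among markers of other cells that carry chemokine receptors, 2 of 11 mast cell genes fell, Mcpt2 (-1.34 ± 0.12) and Mcpt1 (-1.52 ± 0.28). The mast cell list did not share 1 direction, as 7 of the 11 lay above 0 and the median difference was 0.05. At an unadjusted p under 0.05 in limma, 2 of its genes were higher and 2 lower, and 1 rose without litter 1. The 1 of 16 T cell genes that fell was Cd4 (-0.43 ± 0.09, adjusted p = 0.0434, and 0.0713 and 0.245 without litters 2 and 3 and 0.0679 without the litter block). The 1 of 15 natural killer and innate lymphoid genes that fell was Id2 (-0.46 ± 0.08, with adjusted p = 0.16 without litter 3). Id2 had means of 9.43 in mutants and 9.89 in controls, far above the median level of that list, 5.77. Which cells expressed Id2 was not tested. Of 7 eosinophil genes 0 passed in limma (1 higher at an unadjusted p under 0.05, and 1 rise without litter 2), with Alox15 at 0.44 ± 0.12 and Siglecf at 0.12 ± 0.08, and of 6 platelet genes 0 passed, also at an unadjusted p, with Pf4 at 0.15 ± 0.08 and Treml1 at 0.12 ± 0.09. Of 13 genes of lymphoid stroma and follicles 1 fell, Clu (-0.94 ± 0.12). Clu had means of 8.61 in mutants and 9.55 in controls, above the median level of its list, 7.19, and which cells expressed it was not tested.

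Of 16 blood endothelium genes 8 fell (50%, against 2.11% of all genes), Kdr (-0.61 ± 0.08), Plvap (-0.63 ± 0.09) and Ramp2 (-0.51 ± 0.08) among them. The count was 5, 6 and 3 without litters 1, 2 and 3. Without the litter block 5 fell, and Plvap had adjusted p = 0.106. Of 8 lymphatic endothelium genes 1 fell, Itga9 (-0.88 ± 0.10). Of 12 smooth muscle genes 8 fell (66.7%, against 2.11% of all genes), Myh11, Cnn1 and Cald1 with the smallest p. For all 12 every mutant array lay below every control array, against 9.78% of all genes. The number that passed was 1, 8 and 8 without litters 1, 2 and 3. Without the litter block 4 fell, and Cald1 had adjusted p = 0.104. Of 15 colon epithelium genes 2 fell, Car4 (-1.40 ± 0.18) and Aqp8 (-1.29 ± 0.18), with 1, 3 and 0 rises without litters 1, 2 and 3. The epithelial list went both ways, with 8 of 15 above 0 and a median difference of 0.09. At an unadjusted p under 0.05 in limma, 4 of its genes were higher and 3 lower. Of 7 pancreas genes 0 passed in limma (1 at an unadjusted p under 0.05), Prss2 at 0.36 ± 0.14 and Cela1 at -0.18 ± 0.12, with 2 rises without litter 2. The B cell genes with the smallest p were Ebf1 (-0.33 ± 0.08) and Fcer2a (-0.46 ± 0.15), and the interferon-induced ones were Ifit2 (-0.39 ± 0.12) and Mx1 (0.22 ± 0.09); none of these 4 passed.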
